A study of Mus musculus with 48 samples.

Results

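The effect of Ptip loss that was common to 3 populations of the early mouse skeletal lineage was measured in 12 RNA libraries, 6 KO and 6 WT, of the 48 samples in the series. A gene was counted as shared when KO differed from WT at an adjusted p under 0.05 in 1 fit over all 12 libraries, with population as a block. Its mean difference also had to have the same sign in each population, and genes on a glycolysis or a cartilage matrix list were kept apart. By this rule 574 of 17494 genes tested were shared, 420 higher and 154 lower in KO. Mice were C57BL/6, and the cells were taken from their limbs on postnatal day 3. KO mice carried floxed Ptip alleles and Cre under control of Col2a1 (Ptipf/f;Col2a1-cre), and WT mice carried the same floxed alleles without Cre (Ptipf/f), so that both genotypes share the floxed locus. Cells had been sorted as skeletal stem cells (SSC), as the progenitors named pBCSP (pre-bone, cartilage and stromal) or as those named BCSP, and each combination of population and genotype had 2 libraries of polyadenylated RNA. The labels do not say whether the 2 libraries of a group came from separate animals. Nor do they say whether the 3 populations of a number came from the same ones. The p-values measure the spread between these libraries, which is not known to be that between animals. Xist, an RNA of female cells, was read in WT replicate 1 of each population and not in WT replicate 2, as given below. Libraries of the same number deviated together across populations within KO (r of 0.293 to 0.488) and within WT (0.280 to 0.334). The main fit takes all 12 libraries as independent, so its SE and adjusted p may be too small.

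Ptip, now named Paxip1, encodes a nuclear adaptor protein. It belongs to the complexes of the histone methyltransferases KMT2C and KMT2D, which place methyl groups on lysine 4 of histone H3, and it also takes part in the response to DNA breaks. Col2a1 encodes the main cartilage collagen and its promoter is active in chondrocytes and in progenitors of the limb skeleton, so that Cre acts from early stages and in more cell types than those sorted here. Cartilage has no blood vessels, and its cells are known for high glycolysis, for HIF-driven gene expression and for a large output of secreted collagen.

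Libraries held 15495915 to 22670899 counts, and 20965 to 23831 genes had a read in 11 of them, against 13987 genes in SSC KO replicate 2. The median difference between replicates was 1.30, 0.666 and 0.629 log2 in SSC, pBCSP and BCSP of the KO mice, against 0.440, 0.397 and 0.349 log2 in SSC, pBCSP and BCSP of the WT mice. Levels are read counts scaled to a common library size (CPM), and are compared between libraries, not between genes. Col2a1 had 23098 to 42315 CPM in KO (median 31614), against 21136 to 58089 CPM in WT (median 30733). Sox9, a master regulator of cartilage, had 2611 to 4056 CPM in KO (median 3810.4), against 1242 to 4338 CPM in WT (median 2514). Both defining genes of the lineage were high in every library. Of 5 tested genes of sort markers 0 passed (edgeR, 1 at an unadjusted p under 0.05, against 21.8% of all genes tested). Their median was -0.71 log2, against -0.08 over all genes tested. The fitted difference was below 0 for all 5, and 3 had a mean below WT in each population (33% of all genes tested). Among the 5, the integrin gene Itgav had 16.5 to 64.4 CPM in KO (median 36.5), against 59.9 to 71.7 CPM in WT (median 64.7). Cd200 had 13.2 to 303 CPM in KO (median 99.4), against 25.7 to 289 CPM in WT (median 104).

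Paxip1 (ENSMUSG00000002221; GRCm38 chromosome 5, 27740080 to 27791672) was low in every KO library. It had 0.347 and 0 CPM in KO SSC, against 13.7 and 11.8 CPM in WT SSC. It had 0.568 and 0.0904 CPM in KO pBCSP, against 14.6 and 7.56 CPM in WT pBCSP, and 3.48 and 0.791 CPM in KO BCSP, against 13.2 and 7.25 CPM in WT BCSP. All 6 KO values lay under all 6 WT values, and the fitted difference was -4.41 ± 0.90 log2, adjusted p = 0.0254 (edgeR's quasi-likelihood test with Benjamini-Hochberg adjustment, as for all adjusted p-values here). The KO library with the highest level was BCSP KO replicate 1. Of the 9 tested genes on a list of PTIP and its complex partners, Paxip1 alone passed, and the list median was -0.36 log2, against -0.08 over all genes tested. With the 3 libraries that share a genotype and a number allowed to correlate (limma), 0 of the 9 passed, and Paxip1 had an adjusted p = 0.073.

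Over the 3 populations 451 of 17494 genes passed as higher in KO (2.58%) and 156 as lower (0.892%), or 607 in all (3.47%). All 607 had the same sign of mean difference in each population. Leaving aside the 2 lists, on which 15 of 31 glycolysis and 16 of 34 cartilage matrix genes passed as higher and 0 and 2 as lower, 420 and 154 genes remained. The shared genes that were higher in KO had a median difference of 1.28 log2 (2.42-fold), with 291 over 2-fold and 73 over 4-fold. Those that were lower had a median of -1.49 log2 (2.81-fold in size), with 124 over 2-fold and 42 over 4-fold. The genes nearest to the threshold were Ift20 (0.70 ± 0.17 log2, adjusted p = 0.0498) and Ifitm3 (-1.55 ± 0.38 log2, adjusted p = 0.0499) inside it and Corin (-4.08 ± 1.01 log2, adjusted p = 0.05003) and Pygl (1.81 ± 0.45 log2, adjusted p = 0.0504) outside it.

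These counts depended on how independent the 6 libraries of a genotype are and on single libraries. When a correlation was allowed among the 3 libraries that share a genotype and a number (estimated at 0.266, limma), 49 genes were shared as higher and 21 as lower, all of them among the 420 and the 154. Without SSC KO replicate 2, the library with few detected genes, 601 were shared as higher and 383 as lower, among them 390 of the 420 and 151 of the 154. Over the 12 fits that each leave out 1 library, 48 to 601 genes were shared as higher and 9 to 383 as lower, the fewest without pBCSP WT replicate 2. With pBCSP or with BCSP left out 0 genes passed (edgeR, 2086 and 2123 at an unadjusted p under 0.05), while without SSC 292 were shared as higher and 97 as lower. With counts summed over the populations 0 passed (edgeR, 1445 at an unadjusted p under 0.05), and DESeq2 called 1243 shared higher and 891 shared lower. Of all calls 74.3% were higher in KO, against 60% with scaling by total counts alone.

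**Figure D1:**
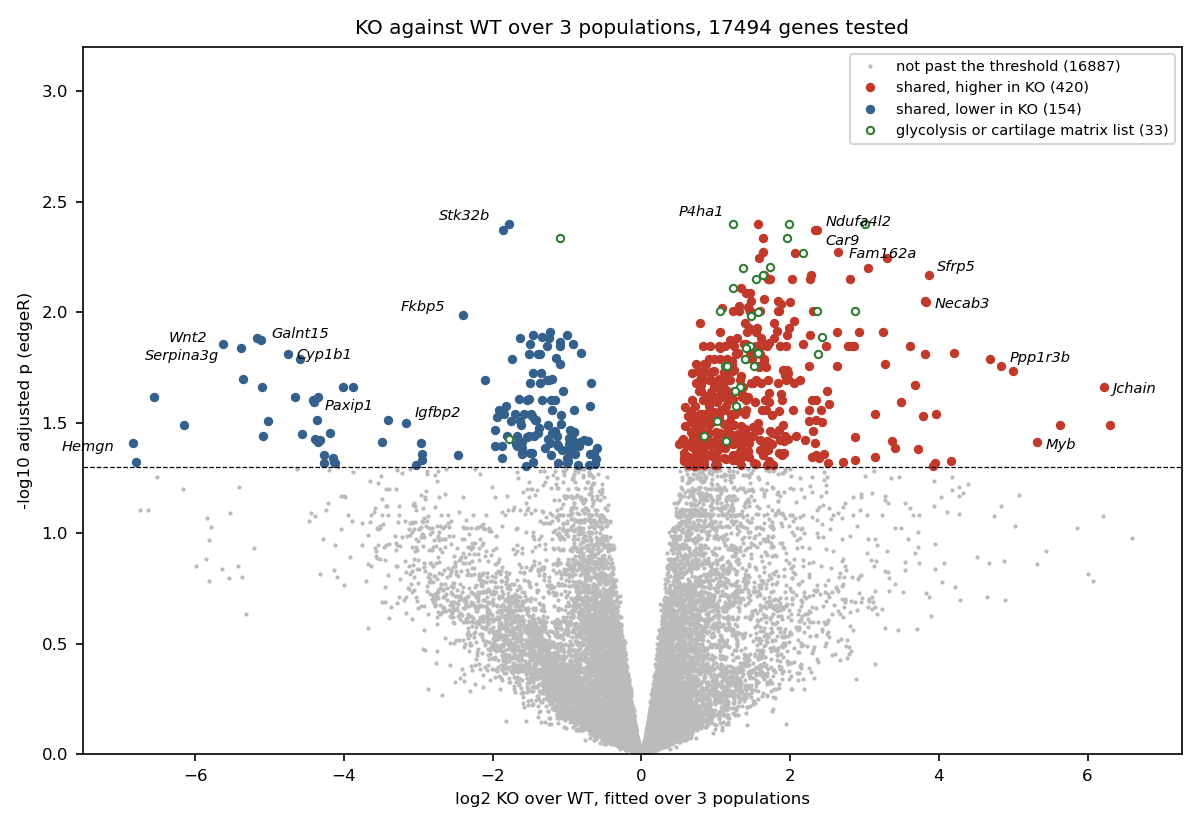
Each point is a gene, with the fitted log2 difference of KO over WT across the 3 populations on the horizontal axis and -log10 of the adjusted p on the vertical axis; the dashed line is the threshold of 0.05. Shared genes that were higher in KO (420, red) outnumber those that were lower (154, blue), and open green circles are the 33 called genes of the glycolysis and cartilage matrix lists.

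By population the median of the mean differences of the higher genes was 1.23 log2 in SSC, 1.22 in pBCSP and 1.25 in BCSP. For the lower genes it was -1.49, -1.55 and -1.59, and over all genes tested -0.33, -0.07 and -0.04 in the same order. The genes were chosen for the same sign in each population, so these medians are a description. In the test of whether the KO effect differs between populations 0 of 17494 genes passed (edgeR), with 240 at an unadjusted p under 0.05 (1.37%), among them 6 of the 420 and 0 of the 154. Without SSC KO replicate 1, where the library with few detected genes stands alone for SSC KO, 2082 genes passed that test. Both KO libraries lay above both WT libraries in each population for 385 of the 420 (930 of all genes tested, 5.32%) and below them for 150 of the 154 (1142, 6.53%). All 6 KO values were above all 6 WT values for 306 of the 420 (538, 3.08%) and below for 82 of the 154 (347, 1.98%). These counts too are of the contrast on which the genes were chosen, and do not test them.

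The size of the effect differed between the replicates of KO. Against the WT mean of their population, the shared higher genes had medians of 0.871, 1.08 and 0.907 log2 in replicate 1 of SSC, pBCSP and BCSP and of 1.54, 1.37 and 1.64 in replicate 2. The shared lower genes had medians of -1.14, -1.19 and -1.11 in replicate 1 and of -1.75, -1.98 and -1.95 in replicate 2. Replicate 2 was the more extreme KO library in each population, in both directions. Replicate 1 of WT was itself above the WT mean for 361, 333 and 281 of the 420 higher genes in SSC, pBCSP and BCSP.

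**Figure D2:**
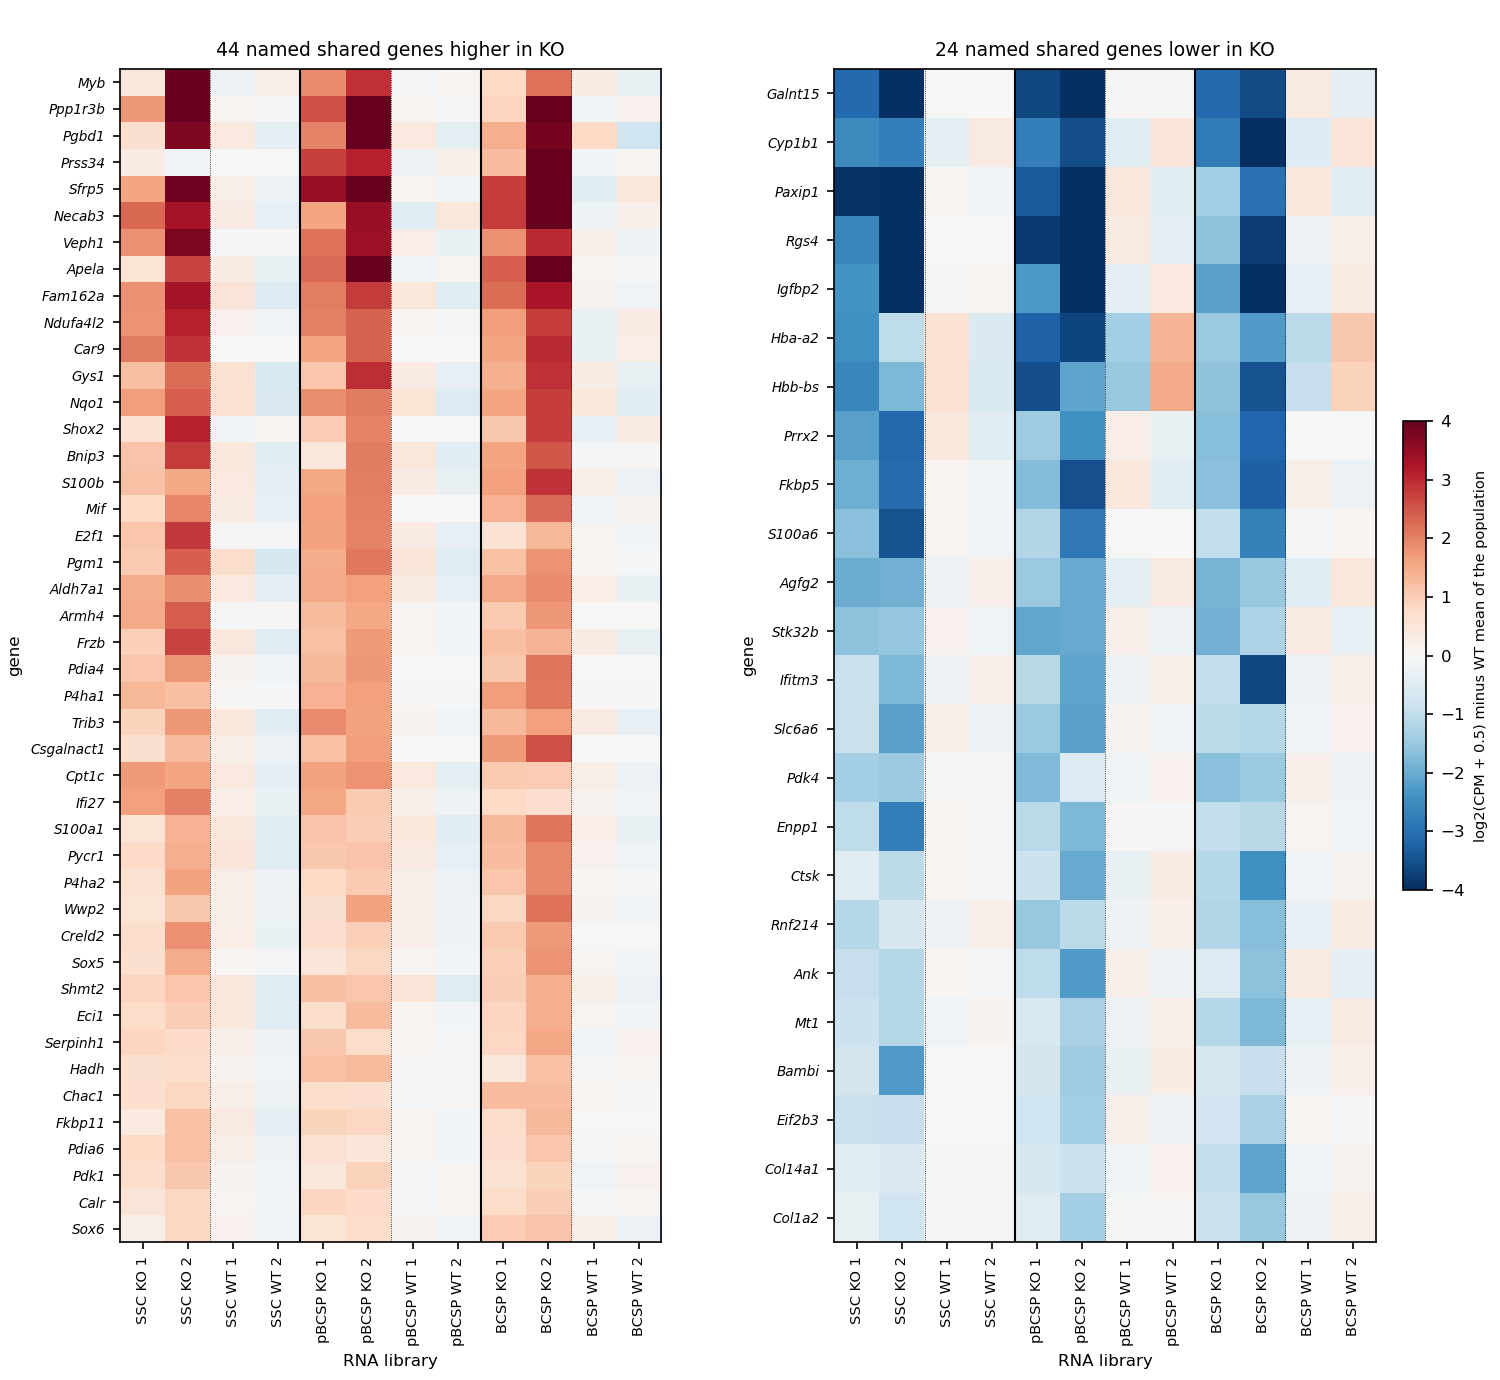
Rows are the named shared genes with at least 500 reads over all libraries, 44 that were higher in KO (left) and 24 that were lower (right), columns are the 12 libraries, and colour is log2(CPM + 0.5) minus the WT mean of the same population, from -4 (blue) to 4 (red). Every KO library lies on the same side of WT for each gene except Prss34 in SSC KO replicate 2.

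Several genes that respond to low oxygen were higher in KO. On a list of hypoxia targets 8 of 21 tested passed as higher and 0 as lower, with a median of 0.97 log2, against -0.08 over all genes. HIF-1 is a transcription factor that is broken down in the presence of oxygen and that binds DNA at the letters ACGTG. Car9, a membrane enzyme that hydrates carbon dioxide, had 166 and 291 CPM in KO SSC, against 38.1 and 39.8 CPM in WT SSC. It had 259.9 and 452 CPM in KO pBCSP, against 86.2 and 88.1 CPM in WT pBCSP, and 98.6 and 263 CPM in KO BCSP, against 27.4 and 39.6 CPM in WT BCSP. No KO value of Car9 was as low as a WT value, and the difference was 2.34 ± 0.27 log2 (5.06-fold, adjusted p = 0.00425). Mif, a secreted cytokine, had 215 to 508 CPM in KO (median 389.6), against 94.5 to 157 CPM in WT (median 108), a difference of 1.73 ± 0.24 log2 (adjusted p = 0.0071). Pdk1, a kinase that holds pyruvate back from the mitochondrion, had 97.1 to 146 CPM in KO (median 113), against 53.7 to 80.8 CPM in WT (median 68.6), a difference of 0.79 ± 0.15 log2 (adjusted p = 0.0189). Bnip3, a receptor of mitophagy, had 608 to 2706 CPM in KO (median 1461), against 281 to 602 CPM in WT (median 362), a difference of 1.88 ± 0.37 log2 (adjusted p = 0.0236). In these 3 genes the groups did not overlap, though the lowest KO value of Bnip3, from pBCSP KO replicate 1, stood close to the highest WT value. Of the targets that did not pass, the angiogenic Vegfa was 0.50 ± 0.38 log2, adjusted p = 0.481. Ndrg1 was -0.68 ± 0.32 log2, adjusted p = 0.242, and the stress gene Ddit4 was -0.52 ± 0.26 log2, adjusted p = 0.276, all 3 chosen with their values known. With SSC KO replicate 2 left out the list had 7 genes higher and 0 lower, and with the correlation 2 and 0. With replicate 2 of all 3 KO groups left out it had 6 higher and 2 lower, and the median was 0.45 log2.

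Outside this list, Ndufa4l2 and Fam162a, both known as HIF-induced genes of the mitochondrion, were among the 6 higher genes with the smallest p. Ndufa4l2 had 718 and 1766 CPM in KO SSC, against 231 and 181 CPM in WT SSC; 1084 and 1379 CPM in KO pBCSP, against 288 and 254 CPM in WT pBCSP; and 509 and 1107 CPM in KO BCSP, against 131 and 197 CPM in WT BCSP. Fam162a had 402 to 1123 CPM in KO (median 691), against 78.7 to 169.9 CPM in WT (median 95.6). The differences were 2.36 ± 0.27 log2 for Ndufa4l2 (adjusted p = 0.00425) and 2.65 ± 0.33 log2 for Fam162a (adjusted p = 0.00534), and no KO value of either overlapped with WT.

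The promoters of several of these genes hold the HIF letters, and 5 with a match are printed to show where. For Ndufa4l2 and Pdk1 no match was found, either because no promoter was at hand or because it lacks the letters. The windows run from 250 bases before to 50 after the first gene start listed by RefSeq (GRCm38.p6), 5′ to 3′ on the strand of the gene, and capitals mark ACGTG, or CACGT where it lies on the other strand. The windows are chr4:43506776-43507075, plus strand, for Car9, chr10:59323046-59323345, plus strand, for P4ha1, chr10:75860228-75860527, minus strand, for Mif, chr7:138909457-138909756, minus strand, for Bnip3, and chr16:36071512-36071811, minus strand, for Fam162a.
Car9: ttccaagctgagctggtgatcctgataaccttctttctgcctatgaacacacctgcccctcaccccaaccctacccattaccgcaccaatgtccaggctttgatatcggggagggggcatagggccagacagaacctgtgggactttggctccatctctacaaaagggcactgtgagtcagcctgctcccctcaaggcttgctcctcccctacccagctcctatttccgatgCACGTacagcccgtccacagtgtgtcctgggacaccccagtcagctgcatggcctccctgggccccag
P4ha1: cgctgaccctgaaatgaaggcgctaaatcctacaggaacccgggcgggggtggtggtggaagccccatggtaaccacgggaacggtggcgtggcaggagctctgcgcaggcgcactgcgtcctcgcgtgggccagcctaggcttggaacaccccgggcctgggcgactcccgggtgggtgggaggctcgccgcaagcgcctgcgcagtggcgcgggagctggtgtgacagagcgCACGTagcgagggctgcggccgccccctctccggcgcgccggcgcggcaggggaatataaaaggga
Mif: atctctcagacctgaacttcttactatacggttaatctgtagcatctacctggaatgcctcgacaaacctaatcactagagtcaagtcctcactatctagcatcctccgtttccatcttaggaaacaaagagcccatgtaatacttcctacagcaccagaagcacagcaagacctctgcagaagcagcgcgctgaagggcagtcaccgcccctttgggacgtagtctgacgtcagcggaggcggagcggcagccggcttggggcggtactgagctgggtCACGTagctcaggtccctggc
Bnip3: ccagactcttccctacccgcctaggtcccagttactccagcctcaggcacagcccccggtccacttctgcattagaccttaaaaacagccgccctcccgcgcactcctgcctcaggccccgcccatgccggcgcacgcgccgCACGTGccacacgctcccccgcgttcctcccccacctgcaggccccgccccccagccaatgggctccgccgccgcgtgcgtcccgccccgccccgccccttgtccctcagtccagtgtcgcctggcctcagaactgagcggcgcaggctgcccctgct
Fam162a: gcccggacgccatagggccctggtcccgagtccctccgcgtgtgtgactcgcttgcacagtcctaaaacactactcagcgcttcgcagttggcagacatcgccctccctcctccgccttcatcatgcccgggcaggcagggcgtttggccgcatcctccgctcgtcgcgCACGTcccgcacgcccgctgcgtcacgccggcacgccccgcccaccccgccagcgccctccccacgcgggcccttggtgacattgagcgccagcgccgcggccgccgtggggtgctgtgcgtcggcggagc
Counted from 0 at the gene start, the match began at -18 in Car9, -16 in P4ha1, 29 in Mif and -81 in Fam162a, and Bnip3 held 2 that overlap in the E-box CACGTG. Searched on both strands, ACGTG was in 6 of the 7 windows of shared hypoxia genes, in 9 of the 18 windows of all tested genes on the list, and in 108 of 337 windows of shared higher genes (32.05%, 95% Clopper-Pearson interval 27.1 to 37.3). It was in 25 of 119 windows of shared lower genes (21.0%, interval 14.1 to 29.4), among them those of Fkbp5, Igfbp2 and Enpp1. Among all tested genes with a window ACGTG was in 25.0%. Windows were at hand for 68.9% of the tested genes, which is under the 80% needed for a comparison, so none was made, and a match is a description of the letters.

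Enzymes and chaperones that shape collagen before its secretion were among the genes higher in KO. Of 30 tested genes of collagen modification and secretion 10 passed as higher and 0 as lower, with a median of 0.39 log2. P4ha1 (ENSMUSG00000019916; chromosome 10, 59323197 to 59373304), the catalytic subunit of a prolyl hydroxylase that stabilises the collagen helix, had the smallest p of all shared genes. It had 932 and 857 CPM in KO SSC, against 386 and 354 CPM in WT SSC; 876 and 1050.5 CPM in KO pBCSP, against 344 and 328 CPM in WT pBCSP; and 803 and 1107 CPM in KO BCSP, against 261 and 247 CPM in WT BCSP. Every KO value was above every WT value, and the difference was 1.57 ± 0.15 log2 (2.96-fold, adjusted p = 0.00399). Its relative P4ha2 had 995 to 2192 CPM in KO (median 1632), against 437 to 1037 CPM in WT (median 675), a difference of 1.22 ± 0.23 log2 (adjusted p = 0.0185). Serpinh1, the collagen chaperone HSP47, had 7739 to 12945 CPM in KO (median 8419.8), against 3894 to 5518 CPM in WT (median 4680.4), a difference of 0.98 ± 0.18 log2 (adjusted p = 0.0185), and Fkbp11, a prolyl isomerase of the endoplasmic reticulum, had 97.7 to 222 CPM in KO (median 154), against 57.9 to 96.3 CPM in WT (median 89.3), a difference of 0.91 ± 0.19 log2 (adjusted p = 0.0267). P4ha2 overlapped between the genotypes across populations but not within any 1 population. The cross-linking enzyme Lox, named after its value was seen, did not pass (-2.17 ± 0.55 log2, adjusted p = 0.0537). Leaving out SSC KO replicate 2, 9 genes of the list were higher and 2 lower, and with the correlation 1 and 0.

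A few chaperones and oxidoreductases of the endoplasmic reticulum (ER) were higher as well. Of 18 tested genes of folding and ER stress 4 passed as higher and 0 as lower, with a median of 0.13 log2. Pdia4, a disulfide isomerase, had 703 and 1089 CPM in KO SSC, against 353 and 295 CPM in WT SSC; 737 and 1002 CPM in KO pBCSP, against 303 and 292 CPM in WT pBCSP; and 579.8 and 1225 CPM in KO BCSP, against 271 and 278 CPM in WT BCSP (1.58 ± 0.20 log2, adjusted p = 0.00569). Calr, a calcium-binding chaperone, had 297 to 373 CPM in KO (median 310.2), against 166 to 223 CPM in WT (median 187), a difference of 0.79 ± 0.12 log2 (adjusted p = 0.0112). Creld2, which is induced by ER stress, was 1.19 ± 0.23 log2, adjusted p = 0.0203, and the disulfide isomerase Pdia6 was 0.81 ± 0.16 log2, adjusted p = 0.0227. Named after their values were seen, the chaperone Hspa5 was 0.09 ± 0.19 log2, adjusted p = 0.811, the transcription factor Xbp1 was -0.02 ± 0.29 log2, adjusted p = 0.972 and Ddit3, which acts in prolonged ER stress, was -0.28 ± 0.20 log2, adjusted p = 0.434. The count was the same without SSC KO replicate 2, and 2 higher and 0 lower with the correlation.

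**Figure D3:**
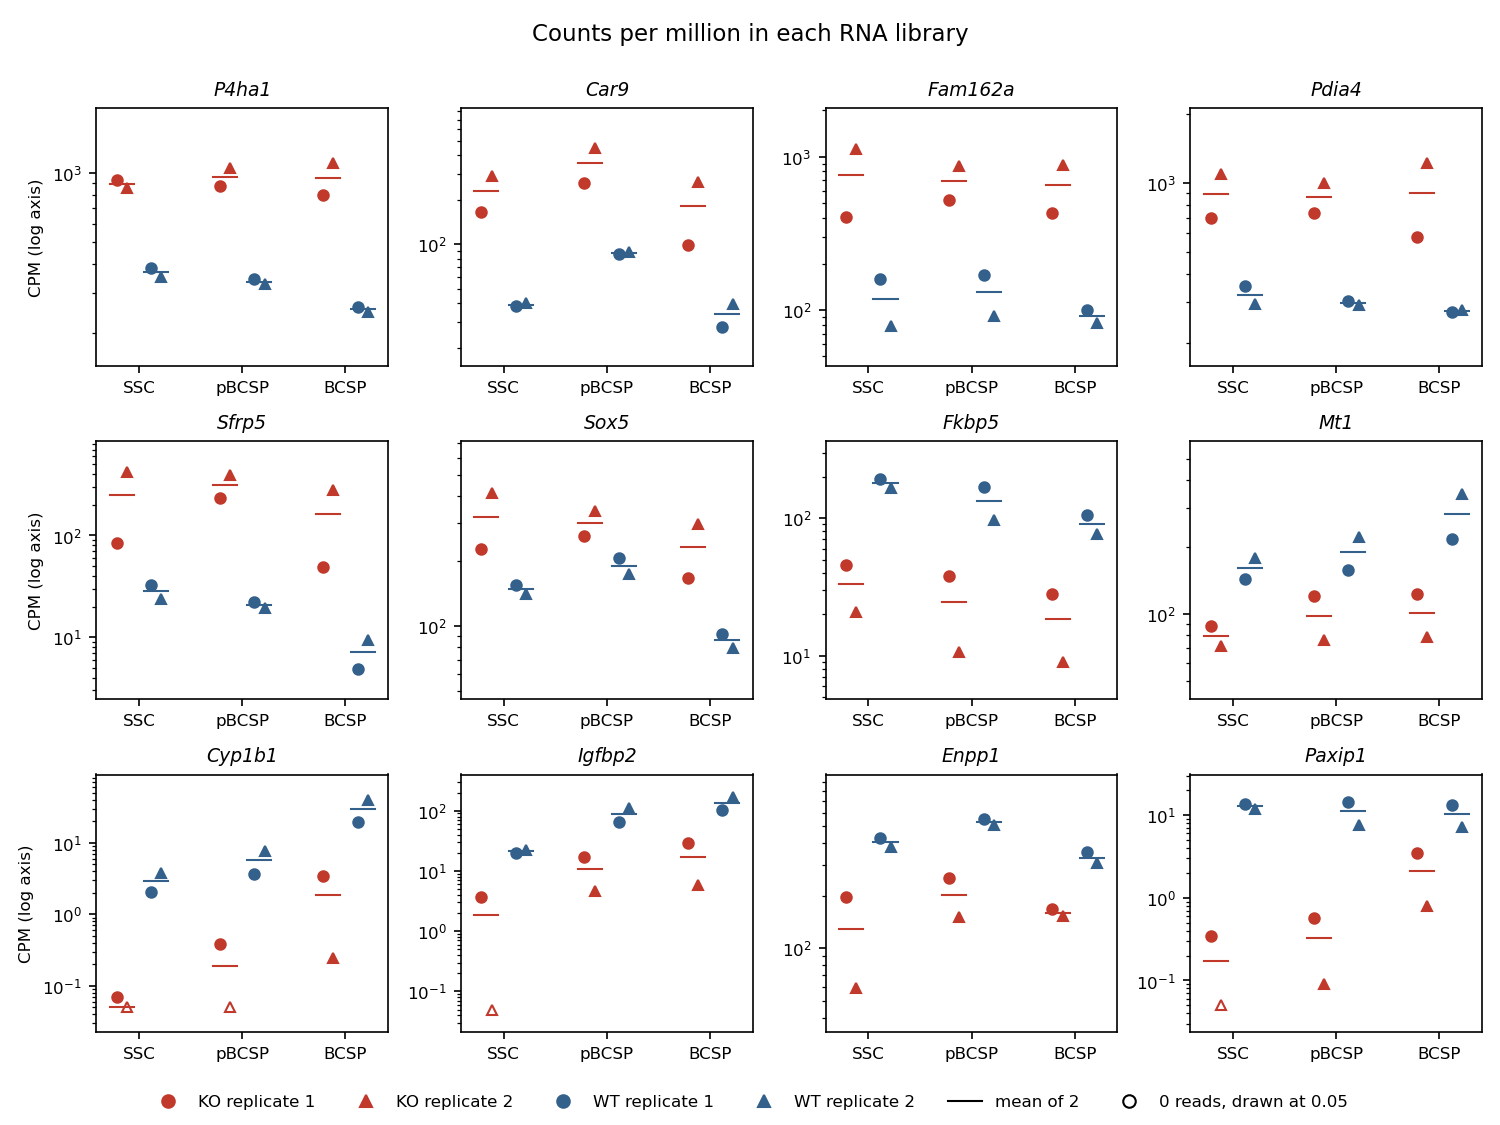
CPM on a log axis in each of the 12 libraries for 12 shared genes, with KO (red) left of WT (blue) in each population, circles for replicate 1, triangles for replicate 2 and a line at the mean of the 2; open symbols are 0 reads, drawn at 0.05 CPM. In each panel both KO libraries of a population lie on the same side of both of its WT libraries.

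Genes of glycogen storage came next. Of 18 tested 3 passed as higher and 0 as lower (median 0.63 log2), and 5 and 1 without SSC KO replicate 2, but 0 and 0 with the correlation, where the adjusted p was 0.243 for Ppp1r3b, 0.0635 for Gys1 and 0.0509 for Pgm1. With replicate 2 of all 3 KO groups left out 5 higher and 1 lower passed, and the median was 0.28 log2. Ppp1r3b, which brings a phosphatase to glycogen, had 11.9 and 131 CPM in KO SSC, against 3.46 and 2.98 CPM in WT SSC. It had 6.56 and 79.4 CPM in KO pBCSP, against 0.757 and 0.648 CPM in WT pBCSP, and 3.48 and 62.2 CPM in KO BCSP, against 1.48 and 1.97 CPM in WT BCSP. All 6 KO values were above all WT values, yet the KO replicates differed from each other by far more than the WT ones, with replicate 2 the higher each time (4.84 ± 0.89 log2, adjusted p = 0.0176). With replicate 2 of all 3 KO groups left out the difference was 2.07 log2 (adjusted p = 0.0090), and over all alternatives the adjusted p was 8.43e-36 to 0.577. The glycogen synthase Gys1 had 24.5 to 98.2 CPM in KO (median 40.9), against 6.63 to 16.1 CPM in WT (median 11.9), a difference of 2.14 ± 0.41 log2 (adjusted p = 0.0203), and Pgm1, a phosphoglucomutase, had 123 to 336 CPM in KO (median 251), against 35.9 to 99.9 CPM in WT (median 91.8), a difference of 1.68 ± 0.31 log2 (adjusted p = 0.0178). The glycogen phosphorylase gene Pygl lay just outside the threshold, as given above.

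Some genes of proline, serine and mitochondrial one-carbon metabolism were higher, and Phgdh, the first enzyme of serine synthesis, did not pass. Of 20 tested genes of amino acid supply 5 passed as higher and 0 as lower, with a median of 0.07 log2, 6 and 0 without SSC KO replicate 2, and 1 and 0 with the correlation. Pycr1, which makes proline, had 214 to 407 CPM in KO (median 273), against 89.4 to 175 CPM in WT (median 111), a difference of 1.25 ± 0.23 log2 (adjusted p = 0.0182). Shmt2, the mitochondrial enzyme that splits serine, had 165 to 232 CPM in KO (median 216), against 70.8 to 142 CPM in WT (median 84.5), a difference of 1.07 ± 0.21 log2 (adjusted p = 0.0236). Trib3, a pseudokinase that is a target of ATF4, had 20.2 to 38.7 CPM in KO (median 30.5), against 7.08 to 14.4 CPM in WT (median 10.03), a difference of 1.55 ± 0.25 log2 (adjusted p = 0.0117), and Chac1, which breaks down glutathione, had 14.8 to 21.2 CPM in KO (median 19.7), against 8.04 to 14.003 CPM in WT (median 9.22), a difference of 0.91 ± 0.20 log2 (adjusted p = 0.0352). In these 4 genes both KO libraries were above both WT libraries in each population. Named after their values were seen, Phgdh was 0.08 ± 0.24 log2, adjusted p = 0.88, and Atf4 itself was -0.14 ± 0.24 log2, adjusted p = 0.771.

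Of 18 tested genes of fatty acid oxidation 3 passed as higher and 1 as lower, with a median of 0.06 log2. With the correlation Cpt1c alone passed, and the adjusted p was 0.0713 for Hadh, 0.0654 for Eci1 and 0.0627 for Pdk4. Cpt1c, a carnitine palmitoyltransferase relative known mainly from neurons, had 60.9 to 90.3 CPM in KO (median 67.6), against 15.2 to 39.2 CPM in WT (median 26.8), a difference of 1.44 ± 0.21 log2 (adjusted p = 0.00946). Hadh and Eci1, mitochondrial enzymes of the oxidation cycle, were 0.91 ± 0.16 log2, adjusted p = 0.0163, and 1.01 ± 0.21 log2, adjusted p = 0.0255. The one that was lower, Pdk4, holds pyruvate back from the mitochondrion as Pdk1 does and is described with the glucocorticoid-induced genes. Aldh7a1, an aldehyde dehydrogenase of lysine breakdown and among the genes with the smallest p, had 86.4 to 128 CPM in KO (median 97.4), against 24.04 to 45.99 CPM in WT (median 31.5), a difference of 1.64 ± 0.19 log2 (adjusted p = 0.00462), with no overlap between the genotypes. Nqo1, a quinone reductase that NRF2 and the aryl hydrocarbon receptor can induce, had 41.6 to 95.5 CPM in KO (median 63.2), against 10.003 to 23.5 CPM in WT (median 14.6), a difference of 2.05 ± 0.32 log2 (adjusted p = 0.0109).

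A few regulators of chondrocyte fate were higher in KO, beyond the matrix genes that were left aside. Of 15 tested 3 passed as higher and 0 as lower, with a median of 0.60 log2. The transcription factor Sox5, which works with Sox9 on cartilage genes, had 228 and 411 CPM in KO SSC, against 155 and 141 CPM in WT SSC; 262 and 339.9 CPM in KO pBCSP, against 206 and 174 CPM in WT pBCSP; and 166 and 297 CPM in KO BCSP, against 92.2 and 79.7 CPM in WT BCSP (1.07 ± 0.21 log2, adjusted p = 0.0227). Its partner Sox6 had 71.9 to 111 CPM in KO (median 86.2), against 29.7 to 71.2 CPM in WT (median 57.1), a difference of 0.75 ± 0.17 log2 (adjusted p = 0.0363), and Wwp2, a ubiquitin ligase whose gene hosts miR-140, had 797 to 2639 CPM in KO (median 1555), against 404 to 999 CPM in WT (median 729), a difference of 1.22 ± 0.27 log2 (adjusted p = 0.0359). The KO and WT ranges of Sox5 and Wwp2 overlapped across populations, and within each population KO was higher. Sox9 did not pass (0.51 ± 0.24 log2, adjusted p = 0.245). Among these regulators 4 were higher without SSC KO replicate 2, and 0 with the correlation, where the adjusted p was 0.0684 for Sox5, 0.11 for Sox6 and 0.0817 for Wwp2.

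Csgalnact1, which starts chondroitin chains, was the 1 of 25 tested genes of chondroitin synthesis that passed, near the 2.58% of all genes tested that passed as higher. It had 212 to 499 CPM in KO (median 323), against 81.5 to 159 CPM in WT (median 129.6), a difference of 1.54 ± 0.25 log2 (adjusted p = 0.0123), and the list median was -0.03 log2. The list had 4 higher and 1 lower without SSC KO replicate 2, with a median of 0.09 log2, and 3 higher and 1 lower without replicate 2 of all KO groups, with a median of 0.14 log2. Shox2, a transcription factor of the proximal limb, was the 1 of 25 limb transcription factors that passed, again near 2.58%. The list median was 0.54 log2. With the correlation 0 of the 25 passed (adjusted p = 0.0911 for Shox2). Without replicate 2 of all KO groups the median turned to -0.16 log2, with 2 higher and 1 lower. Shox2 had 23.2 to 221 CPM in KO (median 125), against 13.9 to 56.6 CPM in WT (median 30.98), a difference of 2.03 ± 0.42 log2 (adjusted p = 0.0276). Among S100 genes of calcium-binding proteins, S100b had 106 to 251 CPM in KO (median 155), against 28.7 to 75.2 CPM in WT (median 41.4), a difference of 1.84 ± 0.28 log2 (adjusted p = 0.00989). S100a1 had 118 to 245 CPM in KO (median 180.4), against 39.1 to 125 CPM in WT (median 66.8), a difference of 1.25 ± 0.26 log2 (adjusted p = 0.029), and S100a6 moved the other way, with 14.6 to 105 CPM in KO (median 42.2), against 156 to 221 CPM in WT (median 184), a difference of -1.91 ± 0.40 log2 (adjusted p = 0.0277). Schwann cells of nerve also express S100b, and their list of 10 genes, S100b included, summed to 180.1 to 712 CPM in KO (median 248), against 122 to 2174 CPM in WT (median 617), with S100b the 1 gene past the threshold. The other genes of that list went the opposite way to S100b. The list median was -2.17 log2, and 9 of the 10 lay below WT in each population (33% of all genes tested did). At an unadjusted p under 0.05 there were 5 of the 10 (edgeR), against 21.8% of all genes tested. In sorted bulk populations fewer cells of a type and less RNA per cell cannot be told apart.

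Of 11 tested secreted Wnt inhibitors 2 passed as higher, Sfrp5 and Frzb, and 0 as lower, while the list median was -0.82 log2. With the correlation Sfrp5 alone passed, and Frzb had an adjusted p = 0.0635. Sfrp5 had 84.6 and 420.4 CPM in KO SSC, against 32.8 and 23.9 CPM in WT SSC. It had 235 and 389 CPM in KO pBCSP, against 21.98 and 19.2 CPM in WT pBCSP, and 48.6 and 278 CPM in KO BCSP, against 4.88 and 9.27 CPM in WT BCSP. Every KO value was above every WT value, and the fitted difference was 3.87 ± 0.52 log2 (14.6-fold, adjusted p = 0.00681). Frzb had 109 to 734 CPM in KO (median 155), against 43.97 to 150.4 CPM in WT (median 62.5), a difference of 1.58 ± 0.29 log2 (adjusted p = 0.0178). Sfrp4 was -2.84 ± 1.07 log2, adjusted p = 0.153, and Wif1 was -0.92 ± 0.28 log2, adjusted p = 0.0923 (both named after their values were seen).

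Further genes with the largest differences were low in WT. Necab3, a calcium-binding protein, had 3.26 to 23.2 CPM in KO (median 7.69), against 0.119 to 2.38 CPM in WT (median 0.774), a difference of 3.83 ± 0.56 log2 (adjusted p = 0.00898). Veph1 had 2.43 to 10.8 CPM in KO (median 6.18), against 0.216 to 0.838 CPM in WT (median 0.432), a difference of 3.81 ± 0.55 log2 (adjusted p = 0.00887), and Apela, a ligand of the apelin receptor, had 1.25 to 21.9 CPM in KO (median 6.18), against 0.45 to 0.98 CPM in WT (median 0.56), a difference of 3.81 ± 0.67 log2 (adjusted p = 0.0155). In these 3 genes no KO value overlapped with WT. Pgbd1 had 1.94 to 27.3 CPM in KO (median 7.83), against 0.054 to 1.56 CPM in WT (median 0.581), a difference of 4.17 ± 1.02 log2 (adjusted p = 0.0473). Armh4, of the genes with the smallest p, had 203 to 554 CPM in KO (median 319), against 95.9 to 139 CPM in WT (median 104), a difference of 1.63 ± 0.20 log2 (adjusted p = 0.00534). The cell cycle factor E2f1 was the 1 of 20 S phase genes that passed, where 2.58% of all genes tested passed as higher. It had 16.1 to 54.3 CPM in KO (median 29.4), against 6.32 to 14.3 CPM in WT (median 8.83), a difference of 1.71 ± 0.34 log2 (adjusted p = 0.0231). With the correlation 0 of the 20 passed (adjusted p = 0.104 for E2f1). Ifi27, which interferon induces, had 110.3 to 169 CPM in KO (median 125), against 34.03 to 76.1 CPM in WT (median 56.5), a difference of 1.29 ± 0.21 log2 (adjusted p = 0.013).

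A last set of higher genes rested on few libraries or few reads. Myb, a transcription factor of blood progenitors, had 0.485 and 56.6 CPM in KO SSC, against 0.115 and 0.358 CPM in WT SSC; 1.45 and 3.53 CPM in KO pBCSP, against 0 and 0.054 CPM in WT pBCSP; and 0.685 and 2.62 CPM in KO BCSP, against 0.345 and 0.0562 CPM in WT BCSP. The highest value was that of SSC KO replicate 2, without which the adjusted p was 0.0548, against 0.0389 with it and 4.69e-13 to 0.577 over all alternatives. Jchain, which joins antibody chains, held 229 reads in the KO libraries, against 2 in the WT libraries (6.22 ± 1.22 log2, adjusted p = 0.0219), and did not pass without SSC KO replicate 2 (adjusted p = 0.0501, and 1.99e-06 to 0.577 over all alternatives). Prss34, a protease of mast cells and basophils, had 0.208 and 0 CPM in KO SSC, against 0.0576 and 0.0597 CPM in WT SSC. It had 3.66 and 4.88 CPM in KO pBCSP, against 0.0445 and 0.216 CPM in WT pBCSP, and 1.79 and 18.6 CPM in KO BCSP, against 0.394 and 0.562 CPM in WT BCSP (3.95 ± 0.97 log2, adjusted p = 0.0483), so that in SSC the groups overlapped. Krt1, Pgbd1 and Ifitm3 also did not pass without SSC KO replicate 2, while the other 75 of the 80 named genes did. The keratin gene Krt1 had 0.263 to 6.76 CPM in KO (median 1.02), against 0 to 0.225 CPM in WT (median 0.112), a difference of 3.72 ± 0.87 log2 (adjusted p = 0.0415), and the list of 8 tested keratinocyte genes summed to 16.9 to 54.6 CPM in KO (median 31.8), against 20.3 to 30.96 CPM in WT (median 22.6). The 11 tested leukocyte genes, 0 of which passed (edgeR, 6 at an unadjusted p under 0.05, against 21.8% of all genes tested), had a median of -1.71 log2. Of these 8 were below WT in each population (33% of all genes tested). They summed to 11.96 to 36.98 CPM in KO (median 13.4), against 9.39 to 29.1 CPM in WT (median 19.2), with the highest KO sum in SSC KO replicate 2. The part of such cells in these results was not tested.

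Some genes that glucocorticoids induce were lower in KO. Of 18 tested 3 passed as lower and 0 as higher, with a median of -1.07 log2, and 17 of the 18 had a mean below WT in each population (33% of all genes tested did). Glucocorticoids enter the cell and bind a receptor that activates these genes directly. Fkbp5, a co-chaperone of that receptor, had 45.6 and 20.9 CPM in KO SSC, against 194 and 166 CPM in WT SSC. It had 38.04 and 10.6 CPM in KO pBCSP, against 169.8 and 96.3 CPM in WT pBCSP, and 27.9 and 8.94 CPM in KO BCSP, against 105 and 76.9 CPM in WT BCSP. Every KO value was under every WT value, and Fkbp5 fell by 2.40 ± 0.37 on the log2 scale (adjusted p = 0.0103). Pdk4, the pyruvate dehydrogenase kinase of fasting, had 5.93 to 14.4 CPM in KO (median 9.97), against 18.6 to 32.7 CPM in WT (median 26.5), a difference of -1.39 ± 0.24 log2 (adjusted p = 0.0155). Mt1, a metal-binding metallothionein, had 71.4 to 123 CPM in KO (median 83.3), against 143 to 345 CPM in WT (median 198), a difference of -1.15 ± 0.20 log2 (adjusted p = 0.0162). Named after their values were seen, Tsc22d3, also known as Gilz, was -1.13 ± 0.36 log2, adjusted p = 0.101, and the receptor gene Nr3c1 was -0.56 ± 0.20 log2, adjusted p = 0.13. When SSC KO replicate 2 was left out 4 of the 18 were lower and 0 higher, and with the correlation 1 and 0. Without replicate 2 of all KO groups 7 were lower, with a median of -0.56 log2. Immediate early genes, which cells switch on within minutes of stress, had a KO mean below WT in each population for 20 of 20 (33% of all genes tested), with a median of -0.66 log2. Of these genes 0 passed (edgeR, 0 at an unadjusted p under 0.05, against 21.8% of all genes tested). In SSC, pBCSP and BCSP the 20 summed to 21471, 21079 and 16932 CPM in KO replicate 1 and to 3761, 1440.0 and 5050.2 CPM in KO replicate 2, against 16314 to 22199 CPM in WT. The low sums were those of KO replicate 2, and without it in all populations the median was -0.015 log2, with 2 higher and 0 lower.

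The promoter of Mt1 is printed because it is the 1 window among the 3 shared genes of this list that holds the letters of the glucocorticoid response element, taken as GNACA and TGTNC with any 3 bases between them. The window is chr8:94178839-94179138, plus strand (GRCm38.p6, from RefSeq), read 5′ to 3′ with the match in capitals.
Mt1: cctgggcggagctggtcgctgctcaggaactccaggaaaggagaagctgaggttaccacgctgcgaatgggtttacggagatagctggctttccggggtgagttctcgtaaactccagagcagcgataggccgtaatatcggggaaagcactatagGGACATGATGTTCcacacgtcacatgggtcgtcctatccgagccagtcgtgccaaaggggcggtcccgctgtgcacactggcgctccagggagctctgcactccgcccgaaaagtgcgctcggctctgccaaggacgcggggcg
The match began at -94 from the gene start. It was in 41 of 12060 windows of tested genes (0.340%), on either strand, and in 1 of 119 windows of shared lower genes.

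Cyp1b1, a cytochrome P450 that the aryl hydrocarbon receptor induces, was lower in KO. It had 0.0693 and 0 CPM in KO SSC, against 2.07 and 3.76 CPM in WT SSC; 0.379 and 0 CPM in KO pBCSP, against 3.65 and 7.67 CPM in WT pBCSP; and 3.48 and 0.243 CPM in KO BCSP, against 19.2 and 40.1 CPM in WT BCSP (-4.75 ± 0.84 log2, adjusted p = 0.0155). KO was lower in each population, while BCSP KO replicate 1 reached the WT level of SSC. On the list of 6 tested targets of that receptor Cyp1b1 passed as lower and Nqo1 as higher, with a median of -2.24 log2.

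Among genes of hypertrophic and mineralising cartilage 2 of 11 tested passed as lower and 0 as higher (median -0.99 log2), and both act on pyrophosphate. Enpp1 makes extracellular pyrophosphate, which holds back mineral, and Ank is needed for its appearance outside the cell. Enpp1 had 198 and 59.05 CPM in KO SSC, against 427 and 383 CPM in WT SSC; 255 and 151 CPM in KO pBCSP, against 554 and 512 CPM in WT pBCSP; and 167 and 153 CPM in KO BCSP, against 355 and 307 CPM in WT BCSP (-1.37 ± 0.26 log2, adjusted p = 0.0209). Ank had 15.8 to 46.8 CPM in KO (median 36.9), against 38.4 to 95.1 CPM in WT (median 77.4), a difference of -1.21 ± 0.27 log2 (adjusted p = 0.0352). Alkaline phosphatase, encoded by Alpl and named after its value was seen, was -1.38 ± 0.67 log2, adjusted p = 0.253. With the correlation 0 genes of this list passed (adjusted p = 0.0609 for Enpp1 and 0.072 for Ank), and 3 were lower when SSC KO replicate 2 was left out. Ctsk, a collagen-degrading protease of osteoclasts and of some stromal cells, had 35.2 to 114 CPM in KO (median 55.8), against 88.05 to 279 CPM in WT (median 147), a difference of -1.26 ± 0.29 log2 (adjusted p = 0.0375). 

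Stromal genes had KO means below WT, most of them short of the threshold. Of 23 tested genes of stromal progenitors 2 passed as lower and 0 as higher, and 17 were below WT in each population (33% of all genes tested), with a median of -1.18 log2. The homeobox gene Prrx2 had 0 to 2.08 CPM in KO (median 0.627), against 2.81 to 7.79 CPM in WT (median 5.76), a difference of -2.96 ± 0.72 log2 (adjusted p = 0.0469), and Col1a2, of the collagen of bone and skin, had 1675 to 3374 CPM in KO (median 2247), against 2774 to 7060.3 CPM in WT (median 4705), a difference of -0.85 ± 0.21 log2 (adjusted p = 0.0493). In the fit without SSC KO replicate 2, 4 of the list were lower, and with the correlation 0 (adjusted p = 0.086 for Prrx2 and 0.0795 for Col1a2). Without replicate 2 of all KO groups 8 were lower, with a median of -0.65 log2. Col14a1, a collagen that sits on fibrils in tendon and skin, had 22.5 to 66.03 CPM in KO (median 42.9), against 33.1 to 141 CPM in WT (median 103), a difference of -0.93 ± 0.22 log2 (adjusted p = 0.0433). Bambi, a decoy receptor of BMP and TGF-beta, had 38.9 to 113 CPM in KO (median 86.9), against 125 to 191 CPM in WT (median 179.8), a difference of -1.07 ± 0.25 log2 (adjusted p = 0.0422).

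Igfbp2, which binds insulin-like growth factors, had 3.67 and 0 CPM in KO SSC, against 20.1 and 22.4 CPM in WT SSC; 16.9 and 4.66 CPM in KO pBCSP, against 64.3 and 111 CPM in WT pBCSP; and 28.6 and 5.84 CPM in KO BCSP, against 104 and 166 CPM in WT BCSP (-3.17 ± 0.69 log2, adjusted p = 0.0317). WT values were highest in BCSP, and KO was lower in each population. Rgs4, which turns off G protein signals, had 0.0554 to 4.43 CPM in KO (median 0.789), against 8.30 to 32.8 CPM in WT (median 14.9), a difference of -3.88 ± 0.76 log2 (adjusted p = 0.0217). Ifitm3, which interferon induces, had 20.1 to 152 CPM in KO (median 37.9), against 62.8 to 347 CPM in WT (median 164). It was the shared lower gene nearest to the threshold.

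Besides Fkbp5, 5 genes had the smallest p among those that were lower. Stk32b, a protein kinase, had 24.9 and 26.7 CPM in KO SSC, against 88.6 and 69.96 CPM in WT SSC; 18.99 and 19.7 CPM in KO pBCSP, against 94.6 and 70.8 CPM in WT pBCSP; and 11.9 and 18.98 CPM in KO BCSP, against 58.1 and 36.7 CPM in WT BCSP (-1.78 ± 0.19 log2, adjusted p = 0.00399). Agfg2, a protein with an ArfGAP domain, had 14.1 to 21.96 CPM in KO (median 17.6), against 45.8 to 86.9 CPM in WT (median 68.2), a difference of -1.86 ± 0.21 log2 (adjusted p = 0.00425). Rnf214, a RING finger protein, had 29.3 to 44.4 CPM in KO (median 37.1), against 60.1 to 121 CPM in WT (median 80.97), a difference of -1.23 ± 0.20 log2 (adjusted p = 0.0123). Eif2b3, a subunit of the exchange factor that starts translation, had 21.4 to 37.5 CPM in KO (median 26.8), against 49.9 to 74.8 CPM in WT (median 53.6), a difference of -1.004 ± 0.16 log2 (adjusted p = 0.0126), and Slc6a6, the taurine transporter, had 40.6 to 98.98 CPM in KO (median 68.7), against 133 to 259 CPM in WT (median 188), a difference of -1.45 ± 0.24 log2 (adjusted p = 0.0127). All 6 KO values were under all 6 WT values in each of the 5.

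The largest decreases were of genes with few reads in KO. Galnt15, which starts mucin-type sugar chains, had 0.97 and 0 CPM in KO SSC, against 12.4 and 12.1 CPM in WT SSC; 0.315 and 0 CPM in KO pBCSP, against 10.1 and 9.35 CPM in WT pBCSP; and 0.369 and 0.122 CPM in KO BCSP, against 9.07 and 5.28 CPM in WT BCSP (-5.11 ± 0.85 log2, adjusted p = 0.0134). Wnt2, a Wnt ligand, held 4 reads in the KO libraries, against 257 in the WT libraries (-5.63 ± 0.95 log2, adjusted p = 0.0139). Serpina3g, a protease inhibitor, held 8 in KO, against 332 in WT (-5.39 ± 0.93 log2, adjusted p = 0.0145). Nxpe2 held 2 in KO, against 102 in WT (-5.17 ± 0.85 log2, adjusted p = 0.013), and the Notch ligand gene Dll4 held 3 in KO, against 115 in WT (-5.10 ± 0.99 log2, adjusted p = 0.0217). Neto1, an auxiliary subunit of glutamate receptors, had 0 reads in the KO libraries, against 56 in the WT libraries. With the 0 taken as 3 reads over the KO group, as a floor, Neto1 fell by 4.13 or more on the log2 scale.

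Genes of blood cells were also among the largest decreases. Hemgn, a nuclear protein of red cell precursors, had 0 reads in KO, against 91 in WT, and at the same floor fell by 4.83 or more on the log2 scale. Lilr4b, a receptor of leukocytes, had 0 reads in KO, against 106 in WT, and fell by 5.05 or more. Cpa3, a protease of mast cells, had 12 reads in KO, against 232 in WT (-5.03 ± 1.08 log2, adjusted p = 0.0311), and C5ar1, the complement receptor of myeloid cells, had 1 in KO, against 95 in WT (-5.09 ± 1.14 log2, adjusted p = 0.0363). The haemoglobin genes Hbb-bs and Hba-a2 were -2.96 ± 0.68 log2, adjusted p = 0.0391, and -3.04 ± 0.75 log2, adjusted p = 0.0492, and reads of globin genes may be split between near-identical copies. Over the erythroid list 3 of 12 tested passed as lower, with a median of -2.87 log2, and the list summed to 21.9 to 67.7 CPM in KO (median 31.4), against 58.04 to 284 CPM in WT (median 95.6). With the correlation 0 of the 12 passed, and the adjusted p was 0.293 for Hbb-bs, 0.258 for Hba-a2 and 0.0635 for Hemgn. Endothelial genes, 0 of 14 past the threshold (edgeR, 4 at an unadjusted p under 0.05, against 21.8% of all genes tested), had a median of -1.49 log2. They summed to 55.7 to 126 CPM in KO (median 93.9), against 63.9 to 236 CPM in WT (median 159.8). Blood cells are no target of the sort, and their part in the lower genes was not tested.

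**Figure D4:**
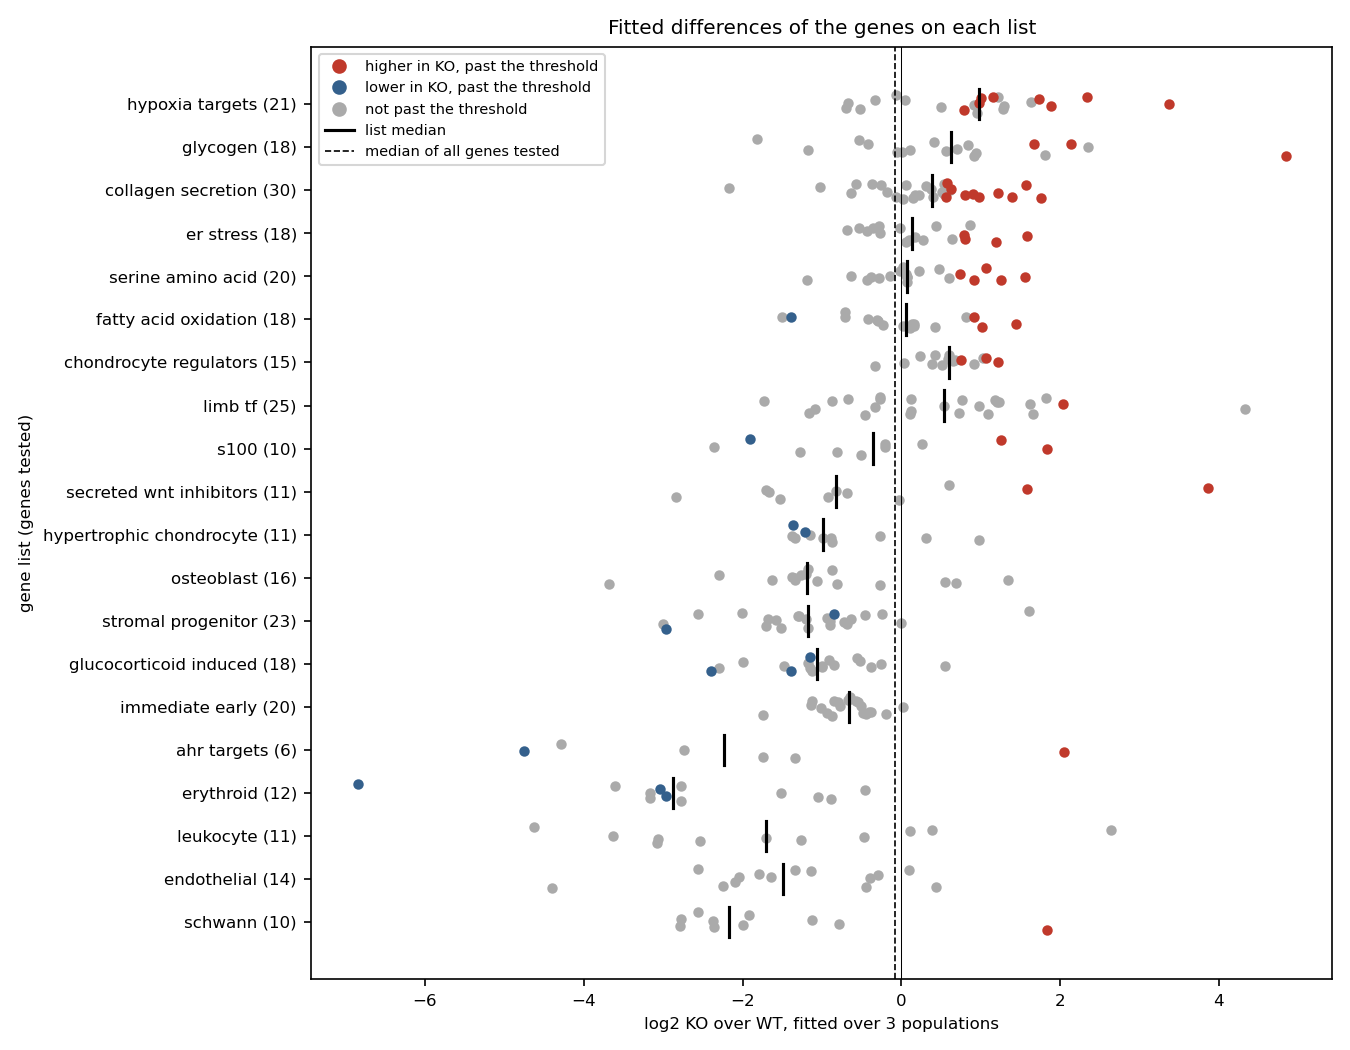
Each point is a tested gene of the list named on the vertical axis, placed by its fitted log2 difference of KO over WT; red and blue points passed as higher and lower, black bars are list medians and the dashed line is the median of all genes tested (-0.08). Hypoxia, glycogen and collagen secretion genes lie mostly to the right, and glucocorticoid-induced, stromal and erythroid genes mostly to the left.

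On 13 further lists 0 genes passed (edgeR). For each of these lists the median difference is given with the number of tested genes at an unadjusted p under 0.05, which 21.8% of all genes tested reached. For energy supply these were nuclear genes of oxidative phosphorylation (0.00 log2, 10 of 29) and mitochondrially encoded transcripts (0.01 log2, 0 of 12). For growth and stress they were genes of G2 and M phase (-0.46 log2, 3 of 20), p53 targets (-0.26 log2, 3 of 15) and heat shock genes (-0.31 log2, 6 of 12). The signalling lists were feedback genes of FGF signalling (-0.60 log2, 5 of 14), Notch targets (-1.11 log2, 2 of 11), Wnt targets (-0.72 log2, 6 of 13) and hedgehog targets (-0.20 log2, 3 of 12). KO means lay below WT in each population for 12 of the FGF, 8 of the Notch and 10 of the Wnt genes (33% of all genes tested). In SSC, pBCSP and BCSP the Wnt targets summed to 3846, 4413 and 4344 CPM in KO replicate 1 and to 1109.9, 1388 and 2131 CPM in KO replicate 2, against 1734 to 3632 CPM in WT. For other cell types they were osteoblast genes (-1.19 log2, 3 of 16), pericyte genes (-1.42 log2, 2 of 9), adipocyte genes (-1.84 log2, 3 of 6) and skeletal muscle genes (-0.75 log2, 1 of 10). Without replicate 2 of all KO groups several of these values moved. The median turned to 0.17 log2 for p53 targets, with 2 higher and 1 lower, and to 0.17 log2 for muscle genes, with 1 higher and 0 lower. It was 0.0014 log2 for heat shock genes (0 higher and 1 lower), -0.09 for FGF feedback genes (0 higher and 3 lower), -0.33 for Wnt targets (1 higher and 1 lower), -0.46 for Notch targets (0 higher and 1 lower) and -0.16 for genes of G2 and M phase (0 higher and 0 lower).

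Histone marks at the starts of the shared genes, which the choice of genes did not use, were taken from the authors' peak lists. For H3K4me3, a mark of active promoters, there was 1 list per population and genotype, with no replicate check. Within 1000 bases of the gene start, 311 of 337 higher genes with a listed start (92.3%) and 98 of 119 lower genes (82.4%) had an H3K4me3 peak in all 6 lists, against 87.7% of the 12060 tested genes with a listed start. As with the promoter letters, a start was at hand for 68.9% of the tested genes, under the 80% needed for a comparison. The shares for this mark and the next are descriptions, and the sets were not compared. A peak in all 3 KO lists and no WT list was found for 0 genes of either set, and the reverse also for 0; over the 12060 genes these numbers were 4 and 0. For H3K4me1, found at enhancers and beside promoters, a peak in all 6 lists was found for 252 of 337 (74.8%) and 75 of 119 (63.0%), against 64.8% of the 12060. These shares were set mostly by the SSC WT list, which held 75277 peaks, against 113313 to 148530 in the other lists. That list alone had a peak for 259 of the 337, 77 of the 119 and 66.7% of the 12060. Galnt15, Rgs4, Igfbp2 and Cyp1b1, which were low in KO RNA, had an H3K4me3 peak in 3 of 3 KO lists and 3 of 3 WT lists, and so did Sfrp5, Necab3 and Apela, which were high. Of the named genes with a listed start, Hemgn, C5ar1, Cpa3, Lilr4b, Hbb-bs, Hba-a2, Nxpe2 and Serpina3g, which were lower, and Sox5, Jchain and Prss34, which were higher, had none in any of the 6 lists, and Veph1 had 1, in SSC KO. Only the first listed start of a gene was searched, and 2427 of the 12060 genes have more than 1. A gene without a peak here, such as Sox5, may therefore have one at another start. H3K27ac lists held 137 to 8572 peaks per library and were too uneven for a count of this kind.

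The shared higher genes held 6 that RefSeq calls pseudogenes, among them Ldha-ps2, Tpi-rs11 and Pgk1-rs7 (named after their values were seen), copies of glycolysis genes on the list that was left aside; reads shared with the parent genes make their counts uncertain. Of the higher genes 22 lay on the X chromosome (5.33% of those with a known position, against 3.55% of all tested) and of the lower genes 1. Usp11, an X-linked deubiquitinase named after its value was seen, had 37.6 to 65.9 CPM in KO (median 45.99), against 11.6 to 24.1 CPM in WT (median 12.9), a difference of 1.64 ± 0.22 log2 (adjusted p = 0.00681). Libraries also differed in sex-linked RNA. Xist, which female cells make, had 0 to 1.83 CPM in the KO libraries, against 9.74, 13.04 and 14.4 CPM in WT replicate 1 of SSC, pBCSP and BCSP and 0 CPM in each WT replicate 2. The Y-linked Ddx3y had 111 to 188 CPM in KO (median 133), against 77.9 to 204 CPM in WT (median 116). The part of sex in the X-linked genes was not tested. The median genomic span was 13967 bases for the higher genes and 30478.5 bases for the lower genes, against 20873 bases over the tested genes that RefSeq lists.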

How the data were processed

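Polyadenylated RNA from 12 sorted samples was sequenced, and the authors deposited 1 table of raw read counts (whole numbers) by gene. Per the submitters' processing notes the tools were MACS2 (2.2.6), SAMtools (1.9), featureCounts (2.0.1), Bowtie2 (2.3.5.1) and Trim Galore (0.6.6), and the build was GRCm38. The sources used here give neither settings nor annotation, nor whether strand was used, so reads of overlapping or antisense genes cannot be told apart. The peak lists deposited by the authors give a score, a fold enrichment (a ratio), a -log10 p-value and a -log10 q-value per peak; peaks were used by position, and with a -log10 q of at least 5 as an alternative.

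Of 55487 listed genes 17494 passed filterByExpr, applied by group. Counts were scaled by TMM and fitted with edgeR 4.0.16 in R 4.3.3 (quasi-likelihood test, population as a block, 8 residual degrees of freedom, biological coefficient of variation 0.580), with Benjamini-Hochberg adjustment over all genes and a threshold of 0.05. Fold changes are KO over WT ± SE with 6 libraries per genotype. The fit took these 6 as independent, while same-numbered libraries of a genotype deviated together, so SE and adjusted p may be too small. The sign in each population was taken from mean log2 CPM with a prior count of 2. A count of 0 was taken to allow 3 counts, 0.134 to 0.208 CPM per library; floors and intervals cover counting error only. The script was tested on simulated data. Alternatives used DESeq2 1.42.0 and limma 3.58.1.

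Named genes were Paxip1, the 10 shared genes with the largest difference and the 6 with the smallest p in each direction, and up to 4 shared genes per list by p; symbols of Gm and digits or ending in Rik were counted, not named. Of the 80 genes that this rule gives, 1 is not reported here. The heat map leaves it out with the other named genes under 500 reads, a minimum chosen after the values were seen. The members, 46 gene lists and tests were chosen with earlier results of these data known. Of 17494 genes tested 92.1% matched a RefSeq gene.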

Additional observations from a re-analysis of the deposited data

Results flagged for a closer look

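Of 82 sets of 6 libraries of 1 genotype examined, 4 held a library whose gap to its nearest neighbour, as a share of the range of the 6, was above Dixon's 95% critical value for 6 samples, and chance gives about 1 in 20 sets. Genes were taken as the log2 CPM of each KO library minus the WT mean of its population. For Col14a1 the gap was 0.719, from BCSP KO replicate 2, the KO library farthest below its WT mean. For the number of genes with a read it was 0.709, from SSC KO replicate 2 with 13987 genes. For Pdk4 it was 0.654, from pBCSP KO replicate 2, the KO library nearest to its WT mean. For Serpina3g it was 0.653, from BCSP KO replicate 2, the KO library farthest below its WT mean. It had 0 reads, as did both pBCSP KO libraries.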

How the results depend on the processing

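All 80 named genes kept the sign of their difference in each of up to 29 alternatives, and 1530 of their 2299 values passed the threshold. The genes were chosen on this contrast and the alternatives use the same libraries, so the kept sign is a description and no test. Without SSC KO replicate 2, 75 of the 80 passed, and with a correlation within genotype and number 27 did (15 higher, 12 lower). The counts of shared genes higher, of shared genes lower and of all genes called were 420, 154 and 607, and they moved with the model and the filter. They were 142, 35 and 205 with 1 mean per group, 1243, 891 and 2191 in DESeq2, 827, 629 and 1592 in limma with weights per library, and 895, 1138 and 2187 with no filter on low counts (46.6% of the calls higher, against 74.3%). The labels do not say what a replicate number marks. Deviations of same-numbered libraries had r of -0.0825 to 0.00981 between KO and WT of a population, but of 0.293 to 0.488 across populations within KO and 0.280 to 0.334 within WT. With the replicate number as a block in edgeR they were 445, 300 and 778, of which 386 and 148 were shared with the 420 and 154; with the replicate block as a correlation in limma they were 49, 21 and 91; and with no block in limma they were 545, 544 and 1127, a fit chosen after seeing the data. Total counts gave 326, 236 and 595 (60% higher), RLE factors 395, 153 and 581, upper quartile scaling 560, 157 and 751, and a minimum of 1 CPM in 6 libraries 536, 182 and 752.

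Counts summed over populations, 2 samples per genotype, gave 0, 0 and 0 (edgeR, 1445 at an unadjusted p under 0.05), and so did the fits without pBCSP (2086) and without BCSP (2123), while without SSC they were 292, 97 and 418. Leaving out 1 library gave 48 to 601 shared higher, 9 to 383 shared lower and 74 to 1022 called. The fewest came without pBCSP WT replicate 2 and the most without SSC KO replicate 2. The shared higher genes were over 1.5 times fewer also without SSC WT replicate 2 (73), BCSP WT replicate 2 (81), pBCSP KO replicate 2 (103), BCSP KO replicate 2 (103), BCSP WT replicate 1 (104), pBCSP WT replicate 1 (180) and pBCSP KO replicate 1 (278), and the shared lower ones without SSC WT replicate 1 (82). Leaving out replicate 2 of all KO groups gave 553, 493 and 1082, and leaving out replicate 1 gave 1559, 2352 and 3982. The cause was not tested. Genes whose KO effect differed between populations numbered 0 in 13 of the alternatives and 2082 without SSC KO replicate 1. The median over all genes stayed between -0.22 and -0.01 log2. Of 96 promoter shares 43 left their interval, 14 with 500 bases and 29 with stricter peaks.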
